A study of Saccharomyces cerevisiae with 46 samples.

Results

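Chromosomes I, III and VI are the 3 shortest of the 16 nuclear chromosomes of budding yeast, and all of their positions in the maps of meiotic DNA double-strand breaks (DSBs) were taken. On the SK1 assembly ASM205788v1 they measured 229 kb, 341 kb and 299 kb from position 1 to the last position with a hit, against 449 to 1487 kb for the 13 other chromosomes. They held 248 of the 3569 DSB hotspots of the genome, 67 on chromosome I, 83 on III and 98 on VI. A hotspot was a stretch in which the smoothed signal of the *rad50S hop1-loop2* and *rad50S* libraries stayed above 0.2 HpM per bp, where HpM is hits per 1000000 mapped hits of the library. Hotspot number per 100 kb was 29.3, 24.3 and 32.7, and their median lengths were 189, 197 and 211 bp.

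Breaks were mapped by CC-seq, which sequences the DNA ends that keep Spo11 bound to them, in diploid SK1 cells collected 6 h after meiotic induction, with 2 replicate cultures per genotype. All 3 genotypes were homozygous for *rad50S*, an allele that blocks the removal of Spo11 and so keeps breaks unrepaired. The first genotype carried wild-type *HOP1*. The second, *rad50S hop1-loop2*, carried alanine substitutions in a loop of the Hop1 chromatin-binding region that contacts nucleosomes, and the last, *rad50S hop1-loop2 pch2*, also lacked *PCH2*. The strain list gave the *rad50S* diploid 2 copies of the *HIS4::LEU2-(NBam;ori)* insert on chromosome III and *leu2::hisG* on both homologues, whereas *rad50S hop1-loop2 pch2* was *leu2::hisG/LEU2* with no such insert. For *rad50S hop1-loop2* these markers are not given in the sources used here, so on chromosome III the marker genotype and *HOP1* cannot be told apart. Genotypes were taken from the titles of the libraries, since a separate genotype field named other genotypes for all 6.

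Spo11 makes meiotic DSBs in short accessible stretches of DNA along loops of chromatin whose bases are held by an axis of Red1, Hop1 and cohesin. Hop1 is the yeast HORMA-domain protein that recruits the break machinery to the axis. It reaches chromatin both through Red1 and through its own chromatin-binding region. Pch2 is the AAA+ ATPase that strips Hop1 from chromosomes once homologues synapse. In wild-type yeast the shortest chromosomes carry more axis protein and more breaks per length than long ones, so that even a short pair is likely to cross over.

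The 6 libraries held 1026669 to 7985420 hits, and every value is relative because each library was scaled to 1000000 HpM over the nuclear genome. A change in the total number of breaks therefore cannot be seen, and a chromosome that lost hits made all others gain share. Within genotypes, replicates correlated across the 248 hotspots with Pearson's r of 0.930 for *rad50S hop1-loop2 pch2*, 0.981 for *rad50S* and 0.987 for *rad50S hop1-loop2*, a description over hotspots that share their library. The second *pch2* library stood apart: 63.2% of its hits lay in hotspots and 32.2 HpM per kb outside them, against 84.3 to 89.4% and 8.35 to 12.3 HpM per kb in the other 5 libraries. Its part in the *pch2* comparisons was not tested beyond the values given without it.

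Chromosomes I and VI were the most densely cut chromosomes in *rad50S* cells and lost that position in *rad50S hop1-loop2*, whereas the density of chromosome III was not called different. On chromosome VI, hit density was 112 and 105 HpM per kb in the *rad50S* libraries (108 ± 5.18, mean ± SD, n = 2) and on chromosome I 106 and 93.9 (99.9 ± 8.41). These were the 2 highest means of the 16 chromosomes, whose 13 others ran from 55.3 to 91.9 HpM per kb. Chromosome III, at 66.2 and 55.6 HpM per kb (60.9 ± 7.50), was the next to lowest, so high density was not shared by all 3.

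In *rad50S hop1-loop2*, density on chromosome I was 36.01 and 39.7 HpM per kb (37.9 ± 2.64), the lowest of all 16, and 0.379-fold the *rad50S* level (log2 change −1.40, SE 0.109, adjusted p = 0.000875, limma with Benjamini-Hochberg adjustment over the 16 chromosomes). Chromosome VI fell to 62.5 ± 0.109 HpM per kb, 0.577-fold (log2 change −0.79, SE 0.0431, adjusted p = 0.000386). Of the 16 chromosomes, 25.0% were called lower and 43.8% higher in this contrast, and the ratios of the 13 others lay between 0.909 and 1.13. On chromosome III both genotypes overlapped, with 58.0 and 54.5 HpM per kb in *rad50S hop1-loop2* (log2 change −0.11, SE 0.0915, adjusted p = 0.29). That value depended on 1 library, since it became −0.24 (adjusted p = 0.0185) without *rad50S* replicate 2 and 0.016 (adjusted p = 0.756) without replicate 1. With 2 libraries against 2, the exact two-sided permutation test over libraries cannot give a p below 0.333.

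**Figure D1:**
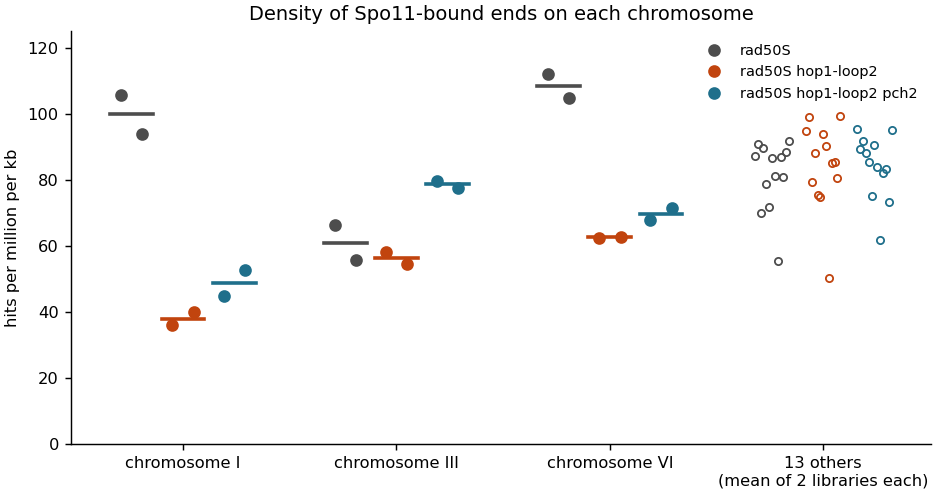
Hit density in HpM per kb (y axis, from 0) for chromosomes I, III and VI (x axis), with 1 filled point per library, coloured by genotype, and a bar at the mean of 2, and for the 13 other chromosomes with 1 open point per chromosome at the mean of 2 libraries. Chromosomes I and VI sit near 100 and 108 HpM per kb in *rad50S* and near 38 and 62 in *rad50S hop1-loop2*, while chromosome III lies between 54 and 80 in all 6 libraries.

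Density on the 3 chromosomes moved to unequal extents. The log2 ratio of density on I to that on III fell from 0.72 in *rad50S* to −0.57 in *rad50S hop1-loop2*, a difference of −1.29 with no overlap between libraries. The ratio of I to VI changed by −0.61 and that of III to VI by 0.68. Each of these 3 differences gave an exact two-sided permutation p of 0.333, the smallest this design allows, and 0.375 after Benjamini-Hochberg adjustment over the 9 pair comparisons.

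Much of a short chromosome lies near an end, so densities were also set beside those at equal distances from the ends of the 13 other chromosomes. From 20 to 60 kb, chromosome I went from 83.4 HpM per kb in *rad50S* to 23.9 in *rad50S hop1-loop2*, chromosome VI from 116 to 75.02 and chromosome III from 19.7 to 14.5. The same zone of the 13 others went from 43.5 to 35.8. Relative to those, the log2 change was −1.51 on I, −0.34 on VI and −0.16 on III. From 60 to 100 kb the 3 relative log2 changes were close together, at −0.85 (I), −0.76 (III) and −0.92 (VI). In that zone their densities were 148, 90.2 and 129 HpM per kb in *rad50S* and 71.1, 46.0 and 58.8 in *rad50S hop1-loop2*, against 68.3 and 58.9 on the others. In the outermost 20 kb density was lower on all 3, going from 22.4 to 8.78 HpM per kb on I, 11.6 to 10.02 on III and 47.1 to 34.7 on VI, and it was lower on the 13 others as well (13.6 to 8.20). Relative to those the direction was not shared, with −0.62 on I, 0.51 on III and 0.29 on VI. For each of these 9 values the libraries of the genotypes did not overlap and the exact two-sided permutation p was 0.333 (0.375 adjusted over 27 zone comparisons). Farther than 100 kb from an end, density went from 119 to 24.8 HpM per kb on I, from 111 to 66.7 on VI, from 81.6 to 98.8 on III and from 93.2 to 98.99 on the 13 others, values that were not tested.

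At single hotspots, 137 of the 248 were lower and 36 higher in *rad50S hop1-loop2* than in *rad50S* (limma on log2(HpM + 1), adjusted over all 3569 hotspots). Over all hotspots 35.5% were called lower and 27.5% higher. Chromosome I had 50 lower and 2 higher of 67, and chromosome VI had 60 lower and 9 higher of 98. On chromosome III the calls were even, 27 lower and 25 higher of 83. The median log2 change was −1.64 on I, −1.32 on VI and −0.0015 on III, beside −0.16 over all hotspots and −0.34 to 0.13 for the 13 other chromosomes taken 1 at a time. When each position of each strand was counted once, which removes both repeated breaks at 1 base and copied reads, the same count was 41 lower and 17 higher. Hotspots were called on both of these genotypes together, so a site weak in *rad50S* entered only through *rad50S hop1-loop2*. Likewise, a site weak in *rad50S hop1-loop2* entered only through *rad50S*. Neither the lower nor the higher counts are therefore independent of how hotspots were called. With hotspots called on *rad50S* alone, 18 were higher on the 3 chromosomes and 10 on III, and at a threshold of 0.4 HpM per bp these were 23 and 16. The 9 higher hotspots on VI became 4 without *rad50S* replicate 2 or without *rad50S hop1-loop2* replicate 2, and the 2 on I became 0 without either of these.

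**Figure D2:**
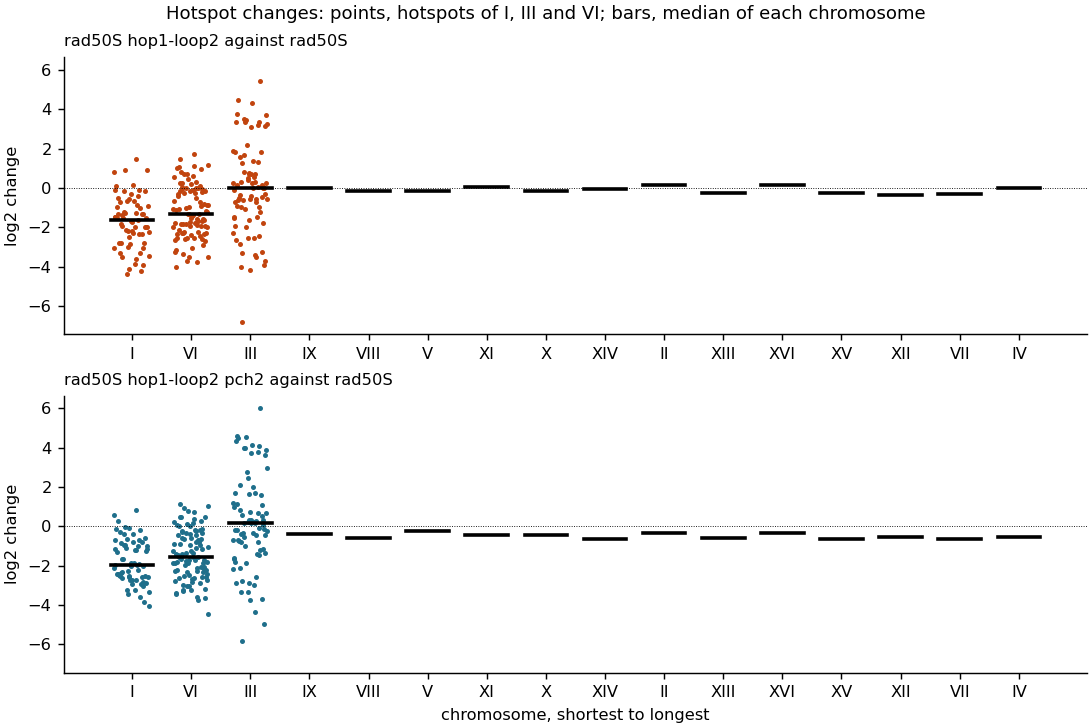
Log2 change of HpM between *rad50S hop1-loop2* and *rad50S* (upper panel, y axis) and between *rad50S hop1-loop2 pch2* and *rad50S* (lower panel), with chromosomes ordered from shortest to longest on the x axis. Points are the hotspots of I, III and VI and bars the median of each chromosome, which in the upper panel lies at −1.64 on I and −1.32 on VI and between −0.34 and 0.13 on the 13 others, while points on III spread from −6.80 to 5.46.

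Losses on I and VI were found among strong and weak hotspots alike. With hotspots divided by strength into 3 equal classes over the genome, the median log2 change on chromosome I was −1.26 for the weakest class (16 of 26 lower), −2.33 for the middle (18 of 21) and −1.95 for the strongest (16 of 20). Chromosome VI gave −1.37 (17 of 31), −1.51 (25 of 35) and −1.02 (18 of 32). On the 13 other chromosomes the same classes had medians of −0.16 (336 of 1106 lower), −0.22 (412 of 1096) and 0.045 (381 of 1119). Hotspots far from an end were lower as well. Those over 100 kb from an end had medians of −2.64 on I (10 of 10 lower) and −1.79 on VI (23 of 30 lower). On the 13 others the median of such hotspots was −0.028 (882 of 2755 lower).

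Chromosome I was cut into 23 tiles of 10 kb, of which 17 were lower and 0 higher in *rad50S hop1-loop2* (limma, 37.6% and 27.2% of all 1213 tiles of the genome). At an unadjusted p under 0.05 the counts were 20 and 0, and edgeR on recovered reads called 18 lower and 1 higher. The losses formed 3 runs of at least 3 adjacent tiles, at 20 to 50, 60 to 130 and 160 to 220 kb. In the middle run, hits went from 9186 and 8949.7 HpM to 3028 and 3327 HpM, 0.350-fold. Toward the right end, 160 to 220 kb held 7056 and 5546 HpM in *rad50S* and 1053 and 1139 in *rad50S hop1-loop2*, 0.174-fold. The stretch beyond 160 kb, chosen after its values were seen, went from 28.1 ± 2.30% to 13.3 ± 0.308% of the chromosome's hits.

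The tile at 130 to 140 kb was the strongest of chromosome I in all 3 genotypes and was not called: 3158 and 2861 HpM in *rad50S*, 2153 and 2557 in *rad50S hop1-loop2* (log2 change −0.36, adjusted p = 0.0579). It made up 13.2% of the hits on the chromosome in *rad50S* and 27.2% in *rad50S hop1-loop2*. Within it, the strongest hotspot of the chromosome (132177 to 132477) gave 1520.3 and 1431 HpM in *rad50S* and 1006 and 1202 in *rad50S hop1-loop2* (log2 change −0.42, SE 0.231, adjusted p = 0.137). Its neighbour at 133637 to 133926 gave 1000.2 and 838 and then 766 and 872 HpM (log2 change −0.16, SE 0.249, adjusted p = 0.593). Libraries of the genotypes overlapped at the neighbour but not at the strongest hotspot, and fitting only the 4 libraries of these genotypes lowered the adjusted p of the latter to 0.0257.

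Among hotspots with a mean of at least 50 HpM over the 4 libraries compared, the largest decreases on chromosome I were those at 184174 to 184499 and 177325 to 177591. The former went from 247 and 224 HpM to 10.4 and 10.1 HpM (log2 change −4.39, SE 0.283, adjusted p = 8.11e-06). The latter went from 299 and 240.4 to 13.5 and 12.9 HpM (log2 change −4.24, SE 0.310, adjusted p = 1.02e-05). Both were thus cut far less often relative to the genome, while the strongest hotspot to their left kept most of its hits. These 2 sites reached a mean of 50 HpM only through the *rad50S* libraries, in which they were high. Their log2 changes and p-values are therefore not independent of that filter. The hotspot at 71156 to 71847 had 866 and 738 HpM in *rad50S* and 688 and 800.1 in *rad50S hop1-loop2* (log2 change −0.11, SE 0.245, adjusted p = 0.725), and the one beside it at 72783 to 73128 rose from 260.01 and 202 to 412 and 459 HpM (log2 change 0.92, SE 0.232, adjusted p = 0.00658). That was the only hotspot of chromosome I above this mean that was called higher with no overlap between libraries of the genotypes. Its adjusted p became 0.0799 without *rad50S* replicate 2, 0.0726 without *rad50S hop1-loop2* replicate 2 and 0.25 with each strand position counted once.

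**Figure D3:**
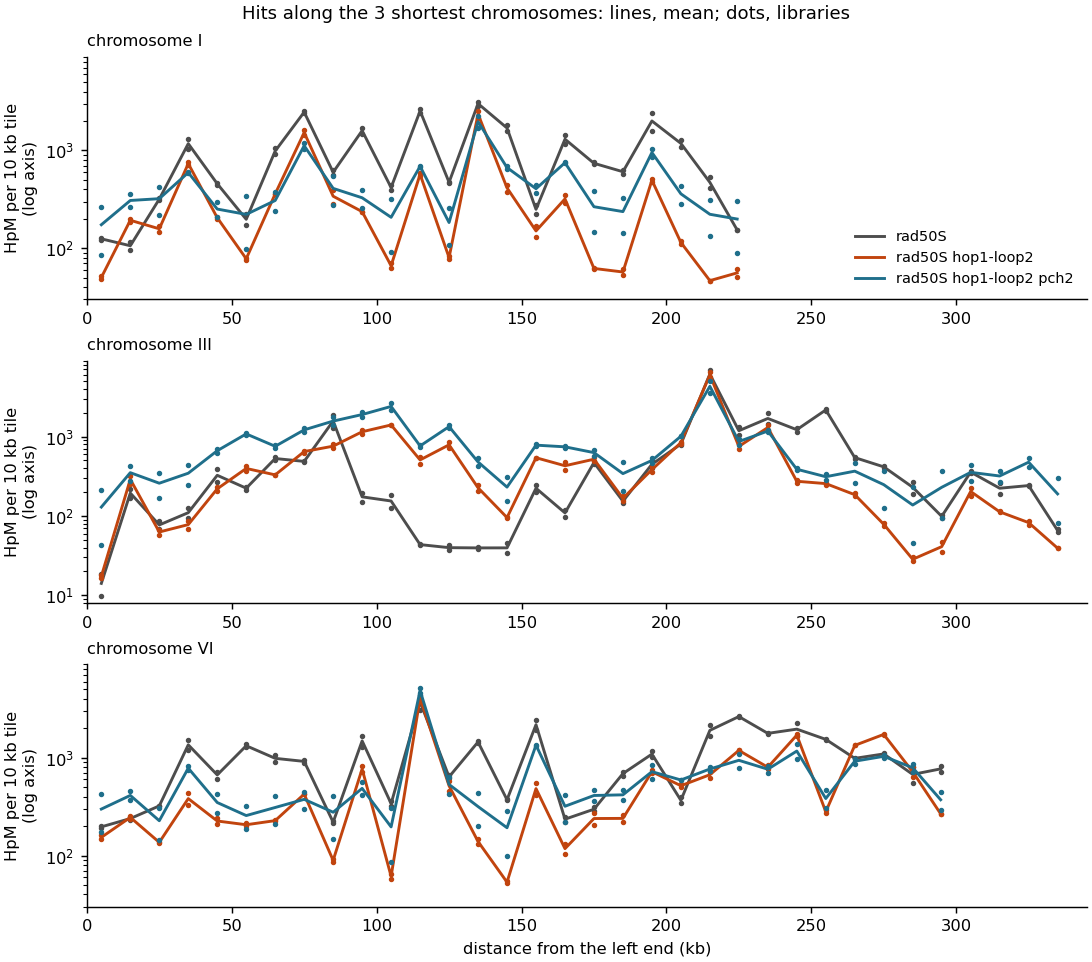
Hits in HpM per 10 kb tile (y axis, log scale) along chromosomes I, III and VI (x axis, kb from the start of the chromosome), with 1 dot per library and a line at the mean of each genotype, and without the last incomplete tile of III. The *rad50S hop1-loop2* lines run below *rad50S* over most of I and VI and above it from 90 to 170 kb of III, and the lines come close together at the strongest tile of each chromosome (130, 210 and 110 kb).

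On chromosome III the near-constant total hid opposite changes along its length. Of 35 tiles, 11 (31.4%) were lower and 9 (25.7%) higher in *rad50S hop1-loop2*. Over all 1213 tiles of the genome 37.6% and 27.2% were called, so a mix of both directions was not particular to III. From 90 to 140 kb, 5 adjacent tiles rose from 504 and 399 HpM to 3885 and 4249 HpM, 9.01-fold. At the other side, 7 adjacent tiles from 220 to 290 kb fell from 7918 and 6959 to 3054 and 2686 HpM, 0.386-fold. The broader stretch from 90 to 170 kb, chosen after its values were seen, was almost without hits in *rad50S*, where it held 3.98 ± 0.261% of the chromosome's hits at 10.3 ± 0.597 HpM per kb. In *rad50S hop1-loop2* it held 26.8 ± 2.15% at 64.1 ± 2.30 HpM per kb. Beyond 240 kb the share went from 27.0 ± 3.17% to 6.78 ± 0.196%. Leaving out 90 to 170 kb gave a log2 change of −0.50 for the rest of chromosome III. That block was chosen because it rose, so a lower remainder follows from the choice and is not a test.

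Largest of these increases was the hotspot at 125654 to 126087, with 10.995 and 4.62 HpM in *rad50S* cells and 363 and 356 HpM in *rad50S hop1-loop2* cells (log2 change 5.46, SE 0.352, adjusted p = 8.11e-06). A second one at 121811 to 121964 rose from 5.30 and 3.83 to 107 and 133 HpM (log2 change 4.45, SE 0.364, adjusted p = 1.44e-05). In *rad50S* both sites were thus among the weak ones of the chromosome, and 1 read was worth 0.129 and 0.132 HpM in the *rad50S* libraries. Both entered the list of hotspots only through the *rad50S hop1-loop2* libraries, in which they were high. Their log2 changes and p-values are therefore not independent of how hotspots were called.

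The stretch from 170 to 240 kb held 52.1 ± 2.67% of the hits on chromosome III in *rad50S* and 51.8 ± 2.23% in *rad50S hop1-loop2*, although its tiles at 220 kb (log2 change −0.65, adjusted p = 0.000251) and 230 kb (log2 change −0.37, adjusted p = 0.0245) were lower. This stretch held the strongest hotspot of the chromosome, at 216234 to 217563, which gave 4134 and 3127 HpM in *rad50S* and 3851 and 3539 in *rad50S hop1-loop2* (log2 change 0.038, SE 0.255, adjusted p = 0.91). By itself it took 18.3 and 16.5% of all hits on chromosome III in *rad50S*. The hotspot at 229936 to 230703 gave 1249 and 829 and then 1116 and 926 HpM (log2 change −0.0015, SE 0.244, adjusted p = 0.996), and that at 215543 to 215821 gave 1036 and 657 and then 1088 and 761 HpM (log2 change 0.14, SE 0.322, adjusted p = 0.728). At all 3 the libraries of the genotypes overlapped.

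The 2 largest decreases on chromosome III among hotspots with a mean of at least 50 HpM lay outside that right-hand stretch, at 87285 to 87660 and 65874 to 66364. The first had 439 and 294 HpM with wild-type *HOP1* and 3.19 and 1.503 HpM with *hop1-loop2* (log2 change −6.80, SE 0.491, adjusted p = 9.89e-06), and the second had 360.4 and 298 and then 21.3 and 16.8 HpM (log2 change −4.04, SE 0.319, adjusted p = 1.31e-05). These were also the 2 hotspots of the chromosome with the lowest Watson shares in *rad50S*, where 0.427% and 5.431% of their hits lay on the Watson strand. Next was the hotspot at 97726 to 97842, with a share of 5.435%, nearly equal to the latter. That hotspot rose, from 8.02 and 3.96 HpM in *rad50S* to 58.3 and 62.7 HpM in *rad50S hop1-loop2*. Across all 3569 hotspots the median Watson share was 50.3% and 53 were below 10%. The 2 sites that fell reached a mean of 50 HpM only through *rad50S*, in which they were high. Their log2 changes and p-values are therefore not independent of that filter. Hits at these 2 sites were few in *rad50S hop1-loop2 pch2* (3.04 and 8.77 HpM and 42.0 and 23.4 HpM). Both lie on the chromosome that carries the *HIS4::LEU2* insert in the *rad50S* strain, and the position of that insert on this assembly was not determined, so an effect of strain markers and an effect of *hop1-loop2* cannot be told apart at these sites. Leaving out 60 to 90 kb gave a log2 change of −0.057 for the rest of chromosome III.

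**Figure D4:**
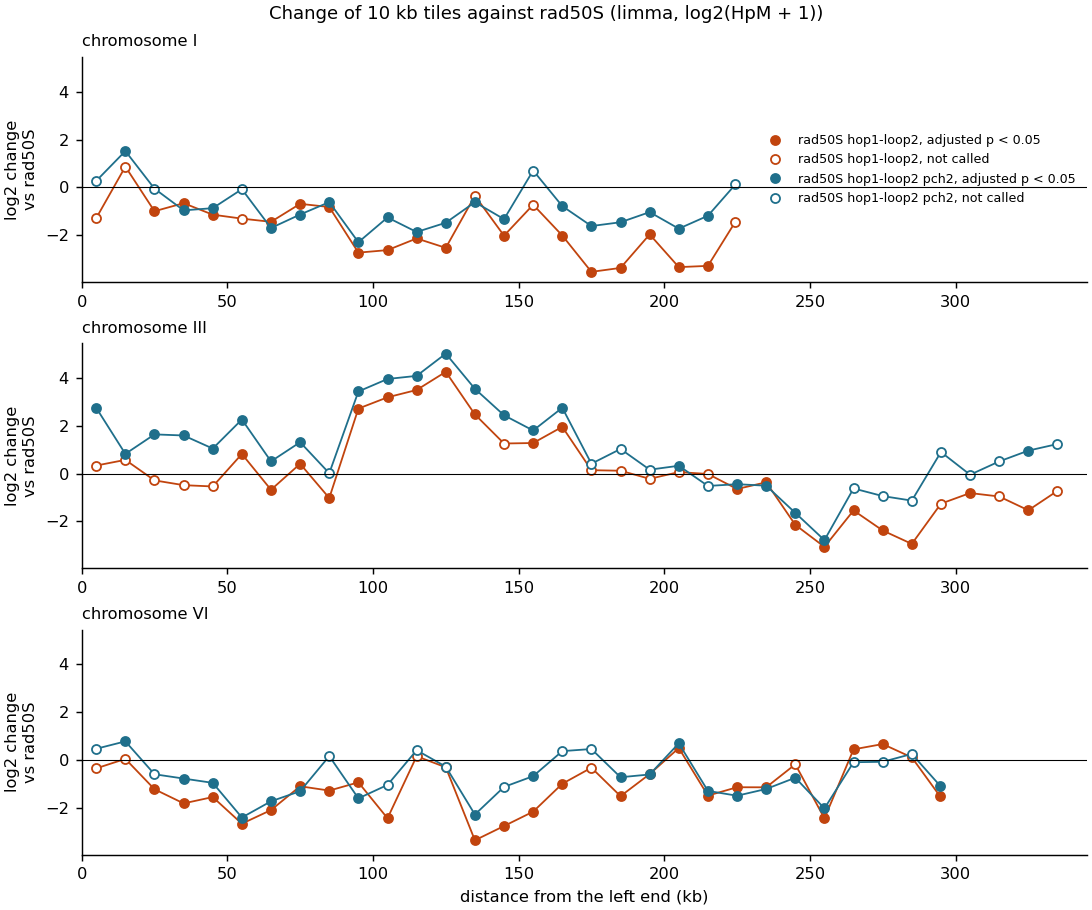
Log2 change of HpM per 10 kb tile (y axis) along chromosomes I, III and VI (x axis, kb from the start of the chromosome), with the *hop1-loop2* strain with and without *PCH2* set against *rad50S*, filled where the adjusted p was below 0.05 and open where not. On chromosome III both run above 2 from 90 to 140 kb, and on chromosome I the *pch2* line lies above the *rad50S hop1-loop2* line from 140 to 220 kb.

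Chromosome VI lost hits over most of its length but kept or gained them at a few places. Of 30 tiles, 20 (66.7%) were lower and 3 (10.0%) higher in *rad50S hop1-loop2*, against 37.6% and 27.2% of all 1213 tiles. From 20 to 110 kb, 9 adjacent tiles went from 7466 and 7774 HpM to 2596 and 2447 HpM, 0.331-fold, and from 130 to 170 kb, 4 tiles went from 3919 and 4548 to 702 and 886 HpM, 0.188-fold. Between these runs stood the strongest tile, 110 to 120 kb, with 4371 and 3079 HpM with wild-type *HOP1* and 4122 and 4030.5 HpM with *hop1-loop2* (log2 change 0.15, adjusted p = 0.57). Its share of the chromosome was 11.5% in *rad50S* and 21.8% in *rad50S hop1-loop2*. The 3 tiles that rose began at 200 kb (log2 change 0.50, adjusted p = 0.0343), 260 kb (log2 change 0.44, adjusted p = 0.00344) and 270 kb (log2 change 0.66, adjusted p = 3.1e-05), and the 9 hotspots that rose all lay between 204703 and 275072.

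Most of the hits in that strongest tile came from the hotspot at 116184 to 117591, the strongest of the chromosome in all 3 genotypes, with 4055 and 2738 HpM in *rad50S* libraries and 4005 and 3896 HpM in those of *rad50S hop1-loop2* (log2 change 0.25, SE 0.235, adjusted p = 0.389). The genotypes overlapped there. In contrast, the next strongest, at 152703 to 153134, fell from 1172 and 1742 to 319 and 450.3 HpM (log2 change −1.91, SE 0.270, adjusted p = 0.000241), and that at 232776 to 233518 fell from 1234 and 1160.4 to 513 and 593 HpM (log2 change −1.12, SE 0.244, adjusted p = 0.00314). The latter call was lost when each strand position was counted once (adjusted p = 0.171).

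Steeper losses were those at 158555 to 158786, from 463 and 474 to 24.1 and 32.3 HpM (log2 change −4.02, SE 0.251, adjusted p = 7.96e-06), and at 137096 to 137333, from 689 and 667 to 48.3 and 50.3 HpM (log2 change −3.75, SE 0.214, adjusted p = 5.65e-06). Both reached a mean of 50 HpM only through *rad50S*, in which they were high. Their log2 changes and p-values are therefore not independent of that filter. Nearer the right end, by contrast, the hotspot at 274456 to 275072 rose from 211 and 240.3 to 728 and 783 HpM (log2 change 1.74, SE 0.203, adjusted p = 8.51e-05). The hotspot at 204703 to 204955 rose from 115 and 84.5 to 194 and 239.6 HpM (log2 change 1.12, SE 0.270, adjusted p = 0.00531), a call lost without *rad50S* replicate 2 (adjusted p = 0.0623), without *rad50S hop1-loop2* replicate 2 (adjusted p = 0.0568) and with each strand position counted once (adjusted p = 0.196).

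Hits on I and VI came from fewer hotspots in *rad50S hop1-loop2*. On chromosome I, the fewest hotspots that together held at least 50% of its hotspot hits numbered 12 and 11 in the *rad50S* libraries and 6 and 6 in *rad50S hop1-loop2*. On VI they numbered 13 and 14, then 9 and 9, whereas chromosome III had 7 in all 4 libraries. Relative to the total of their own chromosome, 86 of the 248 hotspots were lower and 59 higher in *rad50S hop1-loop2* (34.8% and 27.1% of all 3569). By chromosome these were 21 lower and 12 higher on I, 25 and 26 on III, and 40 and 21 on VI. Without *rad50S* replicate 2 those on VI became 23 and 12, without *rad50S hop1-loop2* replicate 1 25 and 12, and without its replicate 2 26 were lower. Relative to the median hotspot of the chromosome instead, 35 were higher on VI and 24 on I. The share lower was close to that over all hotspots.

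**Figure D5:**
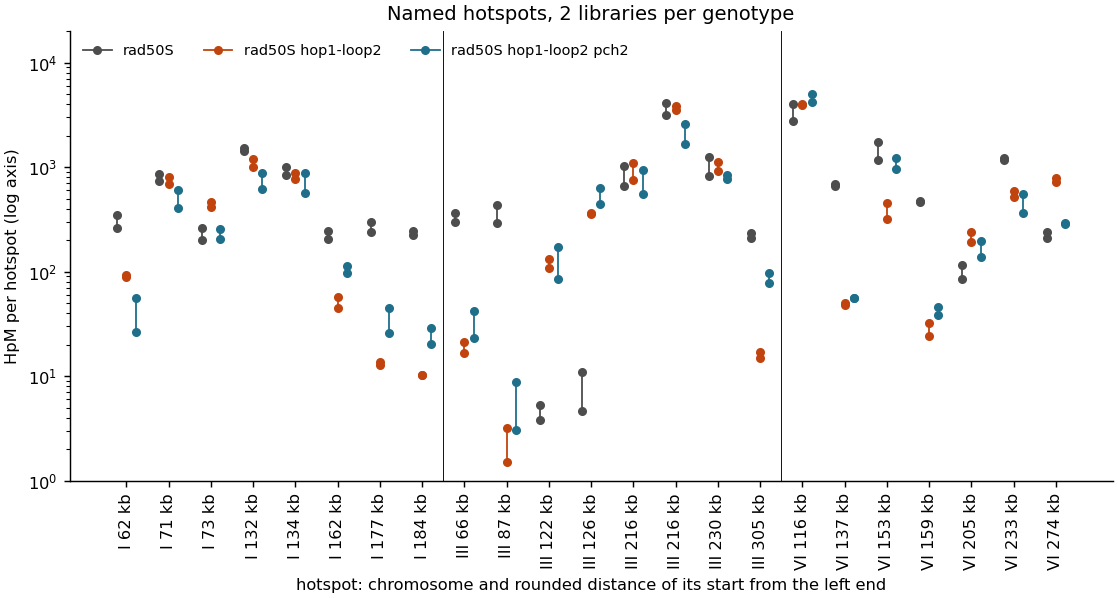
HpM (y axis, log scale) of the named hotspots of chromosomes I, III and VI in each of the 6 libraries, with 1 point per library, coloured by genotype and joined by a line, and hotspots ordered along the x axis by chromosome and rounded distance from the left end. The strongest hotspot of each chromosome stays between 622 and 5004 HpM in all libraries, while the hotspot at 125654 to 126087 of III lies at 10.995 and 4.62 HpM in *rad50S* and between 356 and 634 HpM in the other genotypes.

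The comparison with *rad50S hop1-loop2 pch2* addresses how losing Pch2 changes the distribution of hits in the *hop1-loop2* mutant. Against *rad50S*, chromosome I stayed lower at 44.8 and 52.6 HpM per kb (log2 change −1.04, SE 0.109, adjusted p = 0.00133), as did VI at 67.7 and 71.4 HpM per kb (log2 change −0.64, SE 0.0431, adjusted p = 0.000333). Chromosome III was higher at 79.6 and 77.6 HpM per kb (log2 change 0.37, SE 0.0915, adjusted p = 0.0219). In this contrast 25.0% of the 16 chromosomes were called lower and 43.8% higher. The call on chromosome III was lost without *pch2* replicate 1 or 2. Without 90 to 170 kb, a block chosen after its values were seen, its log2 change was −0.12. The 2 contrasts against *rad50S* share its libraries.

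Of the 248 hotspots, 143 were lower and 33 higher in *rad50S hop1-loop2 pch2* than in *rad50S*, where 43.9% and 21.3% of all hotspots were called. Over all hotspots the median log2 change was −0.55, and after centring on it the counts were 114 lower and 52 higher. The *pch2* libraries took no part in calling hotspots, and over all 10 kb tiles the median was 0.013. The 33 became 59 by edgeR, 57 by DESeq2, 52 at a threshold of 0.1 HpM per bp, 19 at 0.4 and 18 with hotspots called on *rad50S* alone. By chromosome, 51 were lower and 0 higher on I, 26 and 29 on III, and 66 and 4 on VI, with medians of −1.94, 0.16 and −1.54. The 4 on VI became 13 by edgeR, 14 by DESeq2 and 11 after centring, 2 and 1 without *rad50S* replicates 1 and 2, and 7 without *pch2* replicate 2. For the 0 on chromosome I, limma gave 0 at an unadjusted p under 0.05, edgeR called 4 and DESeq2 called 2. Relative to their own chromosome, 114 were lower and 43 higher (43.7% and 21.0% of all, close to the share of the 248), and 66 were higher without *pch2* replicate 2. Between 90 and 170 kb of chromosome III, hits went from 857 and 789.8 HpM in *rad50S* to 8891 and 8322 HpM. The hotspot at 125654 to 126087 gave 634 and 441 HpM (log2 change 6.01, SE 0.352, adjusted p = 3.43e-06).

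At the strongest hotspots, *rad50S hop1-loop2 pch2* moved unequally. On chromosome III the one at 216234 to 217563 fell to 2579 and 1681 HpM (log2 change −0.79, SE 0.255, adjusted p = 0.0209 against *rad50S*). That on chromosome I at 132177 to 132477 fell to 880.3 and 622 HpM (log2 change −0.99, SE 0.231, adjusted p = 0.00402). On chromosome VI the one at 116184 to 117591 gave 5004 and 4241 HpM (log2 change 0.47, SE 0.235, adjusted p = 0.106), above all 4 other libraries. Its share of the hits on VI was 24.7 and 19.8%, against 12.1 and 8.74% in *rad50S*. Chromosome III, in turn, had its hits spread more widely, and the position that divides them equally lay at 142 and 151 kb in *pch2* libraries, at 211 and 202 kb in *rad50S hop1-loop2* and at 217 kb in both *rad50S* libraries.

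Set directly against *rad50S hop1-loop2*, the *pch2* strain had more hits per tile at 33 of the 88 tiles of these chromosomes and fewer at 6 (22.2% and 13.9% of all 1213). On chromosome III, 9 adjacent tiles from 20 to 110 kb rose from 5006 and 5064 HpM to 10618 and 9700.3 HpM, and on chromosome I, 8 adjacent tiles from 140 to 220 kb rose from 1563 and 1759 to 3562 and 4160.1 HpM. On VI, 4 tiles from 130 to 170 kb rose from 702 and 886 to 1883 and 2463 HpM. The density outside hotspots was 12.3 and 32.2 HpM per kb in the *pch2* libraries and 8.35 and 8.51 in *rad50S hop1-loop2*. Its part in these gains was not tested. With that density subtracted from each library, 7 tiles were higher and 3 lower. Leaving out 1 library gave 17 and 19 higher tiles without *rad50S hop1-loop2* replicates 1 and 2, and 63 without *pch2* replicate 1. For tiles against *rad50S*, 37 were lower and 21 higher (31.7% and 30.2% of all), and the 21 became 13 and 10 without *rad50S* replicates 1 and 2, 13 without either *rad50S hop1-loop2* replicate, 35 without *pch2* replicate 1 and 10 with the density outside hotspots subtracted. The lower tiles of the direct contrast numbered 3 without *rad50S hop1-loop2* replicate 1.

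At hotspots the direct contrast made few calls, 9 lower and 20 higher of 248, where 11.9% and 2.8% of all hotspots were called. On chromosome I, the 8 higher ones all lay right of 160 kb and the 5 lower ones all left of 90 kb. Chromosome III had 11 higher and 0 lower in limma (6 lower at an unadjusted p under 0.05, and 1 lower by edgeR and 1 by DESeq2), and chromosome VI had 1 higher and 4 lower. These counts moved with single libraries. Without *rad50S hop1-loop2* replicate 1 or 2 they were 0 lower and 2 higher, without either *rad50S* replicate 7 were higher, without *pch2* replicate 1 they were 88 lower and 40 higher, and without *pch2* replicate 2 48 were higher. Counting each strand position once gave 0 in both directions. Relative to their own chromosome, 25 hotspots were lower and 8 higher (10.5% and 2.35% of all), and both became 0 without either *rad50S hop1-loop2* replicate.

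Among the named hotspots, that at 305491 to 305749 of chromosome III had 212 and 235 HpM with wild-type *HOP1*, 17.2 and 15.0 HpM with *hop1-loop2* and 96.8 and 77.9 HpM in *rad50S hop1-loop2 pch2* (log2 change 2.36, SE 0.247, adjusted p = 0.00442 against *rad50S hop1-loop2*). Values did not overlap between any of the genotypes, and those of *pch2* lay in the middle. Of the genotypes in this contrast, only the *pch2* libraries, in which the site was higher, brought it to the mean HpM required of named hotspots. Its log2 change and p-value are therefore not independent of that filter. The hotspot of chromosome VI at 152703 to 153134 rose again to 1216 and 968 HpM (log2 change 1.51, SE 0.270, adjusted p = 0.0119). In contrast, that at 274456 to 275072, which had risen in *rad50S hop1-loop2*, fell back to 289.6 and 288.3 HpM (log2 change −1.38, SE 0.203, adjusted p = 0.00718). Both of these calls on VI were lost without either *rad50S hop1-loop2* replicate (adjusted p of 0.112 and 0.0659 for the first, 0.0664 and 0.0856 for the second), and all 3 were lost with each strand position counted once.

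On chromosome I, the hotspot at 161834 to 162036 had 244 and 206 HpM in *rad50S*, 44.9 and 57.1 in *rad50S hop1-loop2* and 113 and 97.4 in the *pch2* strain (log2 change 1.04, SE 0.242, adjusted p = 0.0244). The one at 61623 to 61859 went the other way, from 92.9 and 88.8 HpM in *rad50S hop1-loop2* to 56.4 and 26.3 HpM (log2 change −1.21, SE 0.342, adjusted p = 0.0431). The latter site reached the mean HpM required of named hotspots only through the *rad50S hop1-loop2* libraries, in which it was higher. Its log2 change and p-value are therefore not independent of that filter. Neither call held in every leave-out: the first was lost without either *rad50S* or either *rad50S hop1-loop2* replicate (adjusted p from 0.0573 to 0.261), and the second also without *pch2* replicate 2 (adjusted p from 0.0519 to 0.196). At the hotspot of 184174 to 184499, the *pch2* libraries gave 28.8 and 20.5 HpM, between the other genotypes.

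Summed over chromosomes, the direct contrast was higher on I (log2 change 0.36, SE 0.109, adjusted p = 0.0418), III (log2 change 0.48, SE 0.0915, adjusted p = 0.0124) and VI (log2 change 0.15, SE 0.0431, adjusted p = 0.0389), where 31.2% of the 16 chromosomes were called lower and 37.5% higher. On chromosome I the call was lost without *rad50S* replicate 1 or 2 (adjusted p = 0.0554 each), *rad50S hop1-loop2* replicate 1 (0.169) or 2 (0.0759) and *pch2* replicate 2 (0.142). On VI it was lost without *rad50S hop1-loop2* replicate 1 (0.138) or 2 (0.121) and *pch2* replicate 2 (0.142). On III, replicate 2 of *rad50S hop1-loop2* was the one that decided it (adjusted p = 0.0568 without it). Subtracting the density outside hotspots ended the calls on I (log2 change 0.12) and VI (0.10). Both calls were also lost when the replicate number was added to the fit as a block. By distance from the ends, chromosome III had 43.9 HpM per kb from 20 to 60 kb in the *pch2* strain against 14.5 in *rad50S hop1-loop2*, while the 13 others had 49.5 against 35.8.

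Among the named hotspots, the position with the most hits was the same in all 6 libraries only at 116184 to 117591 of VI and 133637 to 133926 of I. The strongest hotspot of chromosome I, at 132177 to 132477, had 4 different leading positions across the libraries. In the hotspot of chromosome VI at 116184 to 117591, position 116870 of the Watson strand was the most used in all 6 libraries, with 6.6 to 16.7% of the hotspot's hits. On chromosome I, position 133826 of the Watson strand led the hotspot at 133637 to 133926 in all 6 libraries. In the strongest hotspot of chromosome III the leading position was 216961 of the Crick strand in the *rad50S* and *rad50S hop1-loop2* libraries and 216930 of the Crick strand in both *pch2* libraries.

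SNP-ChIP of Hop1, with S288C cells added as spike-in, was done on *RAD50* cultures at 3 h. In wild type, the share of SK1 reads in the ChIP over that in the input was 1.79 on chromosome I, 1.43 on III and 1.49 on VI, against 0.907 to 1.07 on the 13 others, and in *hop1-loop2* it was 1.30 (95% counting interval 1.26 to 1.35), 1.06 (1.04 to 1.09) and 1.15 (1.12 to 1.18). The S288C spike-in gave 2.21, 1.85 and 1.79 in the *hop1-loop2* tube and 2.05, 1.67 and 1.68 in the wild-type tube. Its 95% counting intervals overlapped between the tubes on I (2.06 to 2.36 and 2.01 to 2.09) and VI (1.699 to 1.892 and 1.648 to 1.704). On III they were separate, with a lower limit of 1.74 in *hop1-loop2* and an upper limit of 1.70 in wild type. On all 3 chromosomes the spike-in value was thus higher in the *hop1-loop2* tube, while the SK1 value was lower. Overlap of intervals does not show that a difference lay within counting error. The values come from 1 ChIP and 1 input library per genotype, so differences between genotypes have no replicate check here. The intervals cover counting error only.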

How the data were processed

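CC-seq values were deposited as hits per 1000000 hits (HpM), an RPM unit: the authors aligned paired-end reads to the SK1 assembly ASM205788v1 with Bowtie2 through TermMapper, counted the ends bound by Spo11 per position and strand, and scaled each library to 1000000. Whether copied reads were removed is not given in the sources used here. In all 6 libraries 100% of values were whole multiples of 1 read within 0.001 reads, and edgeR (4.0.16) and DESeq2 (1.42.0) on those recovered reads served as alternatives. SNP-ChIP read counts per chromosome were deposited by the authors after Bowtie alignment to joined SK1 and S288C genomes with perfect matches kept. Wild type had 2 sets of SNP-ChIP libraries, both with spike-in in their titles, and the set titled Wt_Spikein was used. For *hop1-loop2*, replicate 2 was used. The series also lists other SNP-ChIP libraries of both genotypes, which did not enter these values. The number of value columns left unused was 0.

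Watson and Crick hits of the 4 *rad50S* and *rad50S hop1-loop2* libraries were averaged and smoothed with a 201 bp Hann window, and stretches above 0.2 HpM per bp of at least 25 bp were taken as hotspots after merging gaps under 200 bp. Hits in 3569 hotspots, 1213 tiles of 10 kb (1 tile without hits was left out) and 16 chromosomes were compared in limma (3.58.1), as log2(HpM + 1) or, for chromosomes, log2 HpM, with all 6 libraries in 1 fit, no block, and Benjamini-Hochberg adjustment at 0.05. Fold changes on that scale understate changes of weak hotspots. For the test within chromosomes, each chromosome was first scaled to its mean total. Zones and chromosome pairs were compared by exact permutation over libraries. Named hotspots were, on each chromosome, the 3 strongest, the strongest of each genotype, and the 2 largest decreases and increases in *rad50S hop1-loop2* and 1 of each in the *pch2* strain against it, among called hotspots with a mean of at least 50 HpM over the libraries compared and no overlap. The chromosomes and lists were chosen with earlier results of these data known. The p-values of limma measure the spread between 2 cultures per genotype, pooled over the 3 genotypes and moderated across hotspots, tiles or chromosomes. Those of 1 contrast therefore also depend on the libraries of the genotype outside it. Permutation p-values come from rearranging libraries and do not measure that spread.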

Additional observations from a re-analysis of the deposited data

How the results depend on the processing

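The lower densities of chromosomes I and VI in *rad50S hop1-loop2* and in *rad50S hop1-loop2 pch2* against *rad50S* stayed called in every alternative that was run. Other values moved as follows, and the causes were not tested unless named. Chromosome log2 changes that turned or lost or gained their call were, with each strand position counted once, 0.017 for III in *rad50S hop1-loop2*, and against *rad50S hop1-loop2* in the *pch2* strain 0.074 for I and −0.042 for VI. With hits in hotspots only they were 0.28 for III (*pch2* against *rad50S*) and 0.17 for I (*pch2* against *rad50S hop1-loop2*). With hits outside hotspots only, III gave 0.065 in *rad50S hop1-loop2*, 0.25 in *pch2* against *rad50S* and 0.19 against *rad50S hop1-loop2*, where I gave 0.094 and VI 0.048. VI gave 0.11 there without the strongest hotspot of each chromosome. Subtracting the density outside hotspots, added after seeing the data, gave 0.12 for I and 0.10 for VI. Without 90 to 170 kb, also added afterwards, III gave −0.50 in *rad50S hop1-loop2* and −0.12 in *pch2*.

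Leaving out 1 library at a time, the chromosome log2 changes ran from −0.24 to 0.016 for III in *rad50S hop1-loop2*, from 0.25 to 0.50 for III in *pch2* against *rad50S*, and against *rad50S hop1-loop2* from 0.24 to 0.48 for I, 0.44 to 0.53 for III and 0.11 to 0.19 for VI. The zone of 60 to 100 kb ran from −0.032 to 0.29 on III (*pch2* against *rad50S*) and from −0.046 to 0.18 on I (against *rad50S hop1-loop2*), and the ratio of I to III from −0.26 to 0.010 in the latter. Hotspot calls against *rad50S hop1-loop2* ran from 0 to 88 lower and 2 to 48 higher, and within chromosomes from 0 to 129 lower and 0 to 30 higher, with 31 to 66 higher against *rad50S*. Tile calls ran from 10 to 35 higher against *rad50S*, and from 3 to 8 lower and 17 to 63 higher against *rad50S hop1-loop2*.

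Counts of hotspots were as follows. In *rad50S hop1-loop2*, 23 were higher at a threshold of 0.4 HpM per bp, 18 with hotspots called on *rad50S*, and 17 (41 lower) with each strand position counted once. In *pch2* against *rad50S*, 59 were higher by edgeR, 57 by DESeq2, 52 at a threshold of 0.1, 19 at 0.4, 18 with hotspots called on *rad50S* and 52 after centring on the median. In *pch2* against *rad50S hop1-loop2*, higher hotspots numbered 55 by edgeR, 66 by DESeq2, 34 after centring, 0 counted once and 8 with the outside density subtracted. Lower ones numbered 14 by DESeq2, at 0.4 and after thinning to the smallest library, 4 after centring and 0 counted once. Over all 3569 hotspots edgeR called 1315 lower and 1290 higher in *rad50S hop1-loop2*, 1266 and 1228 in *pch2* against *rad50S*, and 391 and 432 in the direct contrast. Relative to the median hotspot of the chromosome, 89, 84 and 24 hotspots were higher in these contrasts. Tiles of 5 kb gave 93 lower and 24 higher, 64 and 41, and 10 and 67, and tiles of 20 kb gave 27 and 5, 21 and 9, and 3 and 20, since more or fewer tiles were tested. In the direct contrast centring gave 11 lower tiles, counting once 14 higher, and subtraction 3 lower and 7 higher (10 higher against *rad50S*). Counted once, the zone of 20 to 60 kb on I gave −0.013 (direct contrast) and that of 60 to 100 kb on III −0.15 (*pch2* against *rad50S*).

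Replicate numbers were shared between genotypes. Across hotspots, deviations of same-numbered libraries correlated at 0.31 for *rad50S* with *rad50S hop1-loop2*. For the *pch2* strain they correlated at 0.086 with *rad50S* and 0.11 with *rad50S hop1-loop2*. No label named a shared batch, so whether same-numbered libraries form pairs was not determined. With the replicate block, chromosomes I and VI gave 0.36 and 0.15 in the direct contrast with an adjusted p of 0.0675 each, and lower hotspots there numbered 18, or 40 within chromosomes.

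Named hotspots that changed sign in *rad50S hop1-loop2* were uncalled before and after. That of I at 133637 gave 0.020 by edgeR and 0.011 by DESeq2. At 71156 of I these were 0.078 and 0.069, with 0.051 after centring and leave-one-out values of −0.22 to 0.0076. At 216234 of III, scaling to the 13 other chromosomes gave −0.0073 and counting once −0.15 (leave-one-out −0.16 to 0.24). At 229936 of III the values were 0.16 by edgeR, 0.15 by DESeq2, 0.0011 at a threshold of 0.4, 0.16 after centring, 0.030 counted once and 0.024 thinned (leave-one-out −0.30 to 0.29). At 215543 of III leave-one-out values ran from −0.19 to 0.47. At 116184 of VI counting once gave −0.049 (leave-one-out −0.038 to 0.53). In the direct contrast, the called hotspot of I at 161834 gave −0.056 counted once. The second *pch2* library was the shallowest, with 1026669 hits, and 1 read there was worth 0.974 HpM.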
